A study of Mus musculus with 6 samples.

Results

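The Notch pathway is described here through 10 of its genes, the receptors Notch1, Notch2, Notch3 and Notch4, the ligands Jag1, Jag2, Dll1 and Dll4 and the target genes Hes1 and Hey1, in whole mouse lung after naphthalene injury. The members were the probe sets of the array annotated to exactly 1 of these genes, which gave 11 probe sets for the 10 genes, out of 17476 probe sets for 16537 genes. A probe set is a group of array probes read as 1 value. Dll1 had 2 probe sets, of which the brighter stood for the gene, and 1 further probe set that named Dll4 together with a second gene was left out. All 10 genes also passed a filter on dim signal set at the 30th percentile of all probe sets and a stricter filter set at the median.

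Notch is a receptor that signals between touching cells. A Jagged or Delta-like ligand on one cell binds the receptor on its neighbour, proteases then free the receptor's intracellular part, and this part joins the DNA-binding protein Rbpj in the nucleus and switches on repressor genes of the Hes and Hey families. In lung, Notch signalling in the airway favours secretory over ciliated cells, Notch1, Notch4 and Dll4 are known from endothelium, and Notch3 from pericytes and smooth muscle.

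RNA came from 3 wild-type and 3 Falcor-null samples, the latter with a null genotype (Falcor-/-) of Falcor, a long non-coding RNA gene that neighbours Foxa2, and the strain label was a mix of CD1 and C57Bl6 for all 6. All 6 had been given naphthalene, which club cells of the conducting airway turn into a toxic product, so that no uninjured lung was compared. Time after naphthalene was labelled as 28, 29 and 30 days for wild type and as 31, 32 and 33 days for Falcor-null. The labels rise by 1 day from sample to sample, and whether they are the true days is unknown here; if they are, day and genotype cannot be told apart. Age and the way the null allele was made were not given in the sources used here. The labels did not say that the samples were separate animals, so the p-values cover the spread of these 6 samples, part or all of which may be technical.

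Log2 signals ran between 2.09 and 13.9 over the arrays, with medians from 6.69 to 6.74. The lung markers Sftpc, a surfactant protein, and Scgb1a1, the club cell secretory protein, read 13.5 to 13.6 on every array. The Falcor probe set (9030622O22Rik, 17392549) read 4.69, 5.01 and 5.45 in wild type and 6.82, 6.34 and 6.32 in Falcor-null. It was higher in Falcor-null by 1.44 on the log2 scale (limma adjusted p 0.0423). This call was lost when any 1 array but wild type replicate 3 was left out (adjusted p 0.0704 to 0.143). With replicate numbers as a block it was lost too (0.119). Signals as dim as those of wild type could not be checked against background. The place of this probe set within the gene, inside or outside what was altered, is unknown here. From outside it checks nothing about the labels. From inside, a higher signal in Falcor-null would go against a null genotype, which would put the labels, and so each direction, in doubt. Each direction below follows the labels, and "Falcor-null" means the libraries labelled so. Foxa2 differed by 0.27 (adjusted p 0.175). Of all 16537 genes, 92 (0.556%) passed an adjusted p of 0.05 in limma (linear models with variance shared across genes, Benjamini-Hochberg adjusted over all genes), 16 (0.0968%) higher and 76 (0.46%) lower.

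The comparison asked whether lung labelled Falcor-null differed from wild type in its Notch genes. None of the 10 passed the test in limma, where 0.556% of all genes did, and their adjusted p-values ran from 0.275 to 0.993. The smallest absolute log2 difference among all genes that passed was 0.49, above that of every member, the largest being 0.44 for Jag2. At an unadjusted p under 0.05, 3 of the 10 were called, Notch4, Jag2 and Dll1, all higher, against 13.8% of all genes in either direction, 6.11% higher and 7.65% lower. Of the 10 genes, 8 had a higher and 2 a lower mean in Falcor-null, where 50.8% of all genes were higher, and Hey1, 1 of the 2, was above 0 when arrays were centred on their medians or quantile-normalized again. Jag1 and Notch2, of the 8 with a higher mean, turned sign when single arrays were left out. The median log2 difference of the 10 was 0.18, beside 0.003 over all genes. The groups did not overlap for Notch4 and Dll1, 2 of the 10 genes, against 19.5% of all genes and 8.96% in the higher direction.

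The 95% intervals of the differences give the range that the spread of these 6 samples leaves. They may not cover a spread between animals. They describe whole-lung signal and set no bound on a change within a single cell type. Each interval, taken gene by gene, lay within a 2-fold change in either direction for all 10 members, as it did for 97.0% of all genes. The narrowest interval was that of Notch2, from -0.16 to 0.18, and the widest interval was that of Dll4, from -0.25 to 0.78. In whole lung, fewer cells of a type and less RNA per cell cannot be told apart, and this holds for every value below.

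**Figure D1:**
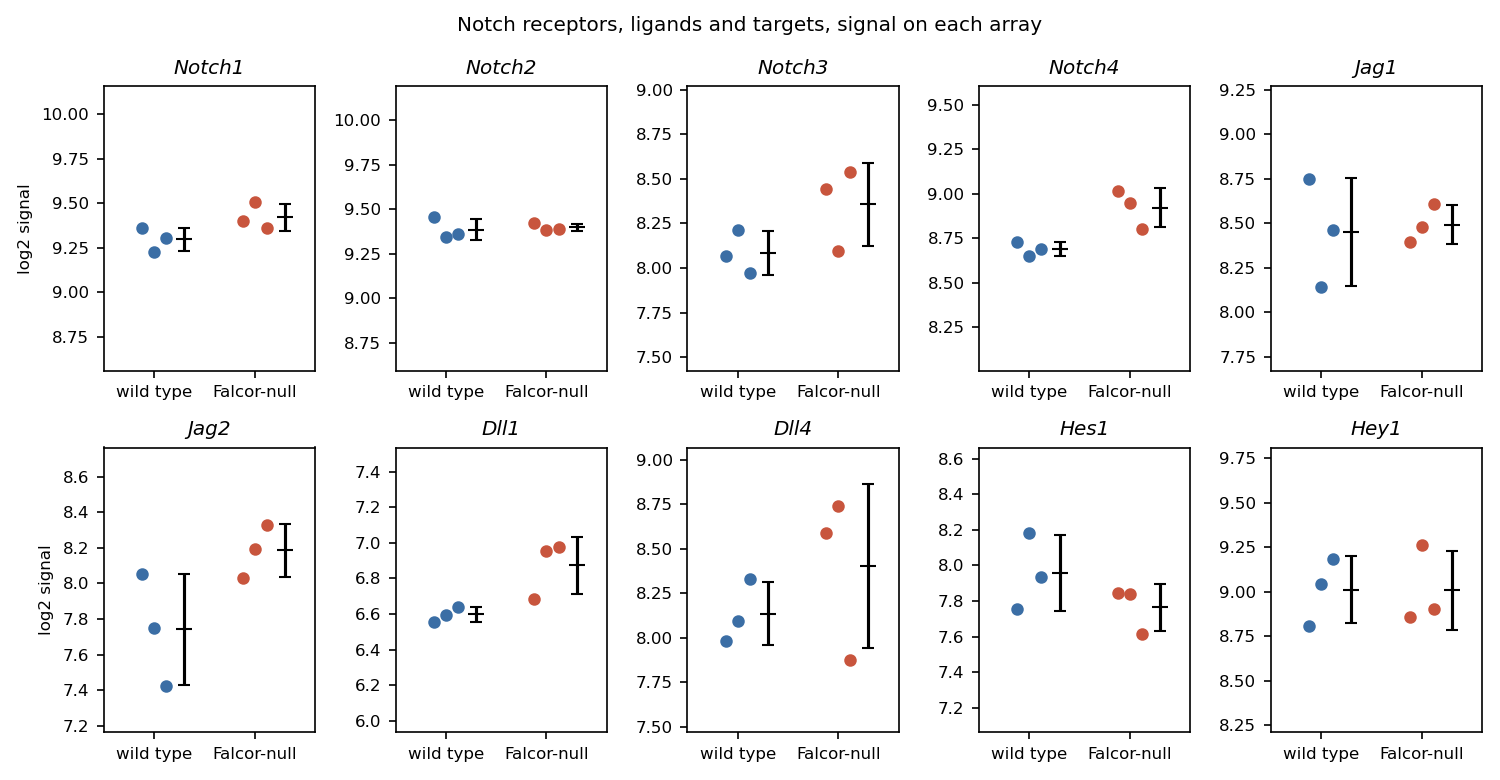
Log2 signal of the 10 genes on each array, wild type in blue and Falcor-null in red, with the mean and SD of 3 arrays beside the points; each vertical axis spans the same log2 range around that gene's mean. The points separate for Notch4 and Dll1, while for Jag2 1 wild-type array reaches the Falcor-null values and for Dll4 1 Falcor-null array lies below wild type.

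Among the receptors, Notch4, known for its expression in endothelium, had the smallest p. Its log2 signals were 8.73, 8.65 and 8.69 in wild type and 9.02, 8.95 and 8.80 in Falcor-null (probe set 17336559). Every Falcor-null array lay above every wild-type array. The difference was 0.23 (SE 0.08, 95% interval 0.04 to 0.43), a 1.17-fold higher signal, and it did not pass (limma adjusted p 0.280).

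Notch3, a receptor known from vascular smooth muscle and pericytes, read 8.07, 8.22 and 7.97 in wild type and 8.44, 8.09 and 8.54 in Falcor-null (probe set 17343299). The second Falcor-null array lay among the wild-type values and the other 2 above them. The difference of 0.27 (SE 0.13, 95% interval -0.03 to 0.58) had an adjusted p of 0.413 in limma. Without Falcor-null replicate 2 it was 0.41, with an adjusted p of 0.247.

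Notch1, the receptor known from endothelium, airway and T cell development, read 9.36, 9.23 and 9.31 in wild type and 9.40, 9.51 and 9.36 in Falcor-null (probe set 17383052). The lowest Falcor-null array and the highest wild-type array met at 9.36. The difference was 0.12 (95% interval -0.06 to 0.31, limma adjusted p 0.546). Notch2, the receptor that B cells of the splenic marginal zone need, read 9.46, 9.34 and 9.36 in wild type and 9.42, 9.38 and 9.39 in Falcor-null (probe set 17400813). Its groups overlapped fully, with a difference of 0.01 (adjusted p 0.965), and this sign turned when single arrays were left out.

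Jag2, a ligand expressed by airway and endothelial cells, had the largest difference of the 10 genes. It read 8.05, 7.75 and 7.42 in wild type and 8.03, 8.19 and 8.33 in Falcor-null (probe set 17284253). The first wild-type array read just above the lowest Falcor-null array, and the wild-type arrays spread more, with an SD of 0.31 against 0.15. The difference was 0.44 (SE 0.16, 95% interval 0.07 to 0.82), 1.36-fold higher, with an adjusted p of 0.284 in limma. It was 0.60 without wild type replicate 1 and 0.28 without wild type replicate 3, with adjusted p-values of 0.151 and 0.445.

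Dll1, a Delta-like ligand, had the smallest p of the 10 genes. Its brighter probe set (17341179) read 6.56, 6.59 and 6.64 in wild type and 6.69, 6.95 and 6.98 in Falcor-null. The groups did not overlap, although the first Falcor-null array lay within 0.1 of the highest wild-type array. The difference was 0.28 (SE 0.10, 95% interval 0.05 to 0.50), 1.21-fold higher, with an adjusted p of 0.275 in limma. The dimmer probe set (17333549) read 5.76, 5.77 and 5.58 against 5.91, 5.82 and 5.92, a difference of 0.18 in the same direction (limma over all probe sets, adjusted p 0.404). Its groups did not overlap either.

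Dll4, the ligand of arterial and sprouting endothelium, read 7.98, 8.10 and 8.33 in wild type and 8.59, 8.74 and 7.88 in Falcor-null (probe set 17374792). The first and second Falcor-null arrays lay above all wild-type arrays and the third below all of them. The difference of 0.27 (SE 0.22) had an adjusted p of 0.649 in limma. Without Falcor-null replicate 3 it was 0.53 (adjusted p 0.176), and without Falcor-null replicate 2 it was 0.10 (adjusted p 0.905). Jag1, a ligand of arterial smooth muscle and airway epithelium, read 8.75, 8.14 and 8.46 in wild type and 8.39, 8.48 and 8.61 in Falcor-null (probe set 17392151). The Falcor-null values lay inside the wild-type range, with a difference of 0.04 (95% interval -0.31 to 0.40, limma adjusted p 0.936). It turned to -0.11 without wild type replicate 2 and to -0.01 without Falcor-null replicate 3.

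The target gene Hes1, a repressor that holds back the neuroendocrine fate in the airway, read 7.76, 8.18 and 7.94 in wild type and 7.84, 7.84 and 7.61 in Falcor-null (probe set 17324623). The groups overlapped, with the first wild-type array below 2 of the Falcor-null arrays. The difference was -0.19 (SE 0.13, 95% interval -0.49 to 0.10, limma adjusted p 0.550), an interval that reached from a signal 1.40-fold lower to one 1.07-fold higher. It was -0.08 without wild type replicate 2 and -0.29 without wild type replicate 1, with adjusted p-values of 0.865 and 0.369. Hey1, a repressor known from endothelium, read 8.81, 9.04 and 9.18 in wild type and 8.86, 9.26 and 8.90 in Falcor-null (probe set 17404011). The groups overlapped over most of their range, with a difference of -0.01 (95% interval -0.33 to 0.32, adjusted p 0.993). Of the 10 intervals 7 included 0, those of both targets among them, as did 14262 of the intervals of all 16537 genes. The receptors and ligands had means that were higher in Falcor-null, a direction that Jag1 and Notch2 lost when single arrays were left out. Whether targets and receptors differ in their response was not tested.

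The members did not follow one order over the arrays. Taken as the mean deviation of the 10 genes from their own means, the 3 wild-type arrays stood at -0.06, -0.08 and -0.08 and the 3 Falcor-null arrays at 0.06, 0.13 and 0.03. Falcor-null replicate 2 held 3 of the 10 highest values and Falcor-null replicate 3 held 3, while wild type replicate 1 held 2, for Notch2 and Jag1. Without Falcor-null replicate 2 the median log2 difference of the 10 genes was 0.09.

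By distance over the 6 arrays, the genes whose centred values lay nearest to those of Dll1, the member with the smallest p, were Htr3b, a serotonin receptor subunit, at a root mean square distance of 0.035, Fam98a at 0.042 and Plekha8 at 0.044 on the log2 scale. Their log2 differences were 0.23, 0.24 and 0.34. With 6 values per gene and a search over the whole array, the likeness is a description. Htr3b was also dim, with means of 4.40 in wild type and 4.63 in Falcor-null, so its signal over background is unknown.

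The rest of the pathway was read from a list of 59 further genes, of which 54 were measured. None passed the test in limma, in either direction, where 0.556% of all genes passed. At an unadjusted p under 0.05, 4 were higher and 3 lower of the 54, against 13.8% of all genes. Of the 54 genes, 29 were higher and 25 lower, with a median log2 difference of 0.01. Groups did not overlap for 9 higher and 4 lower genes, 24.1% of the list beside 19.5% of all genes. All 54 intervals lay within a 2-fold change, as did 97.0% of those of all genes.

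**Figure D2:**
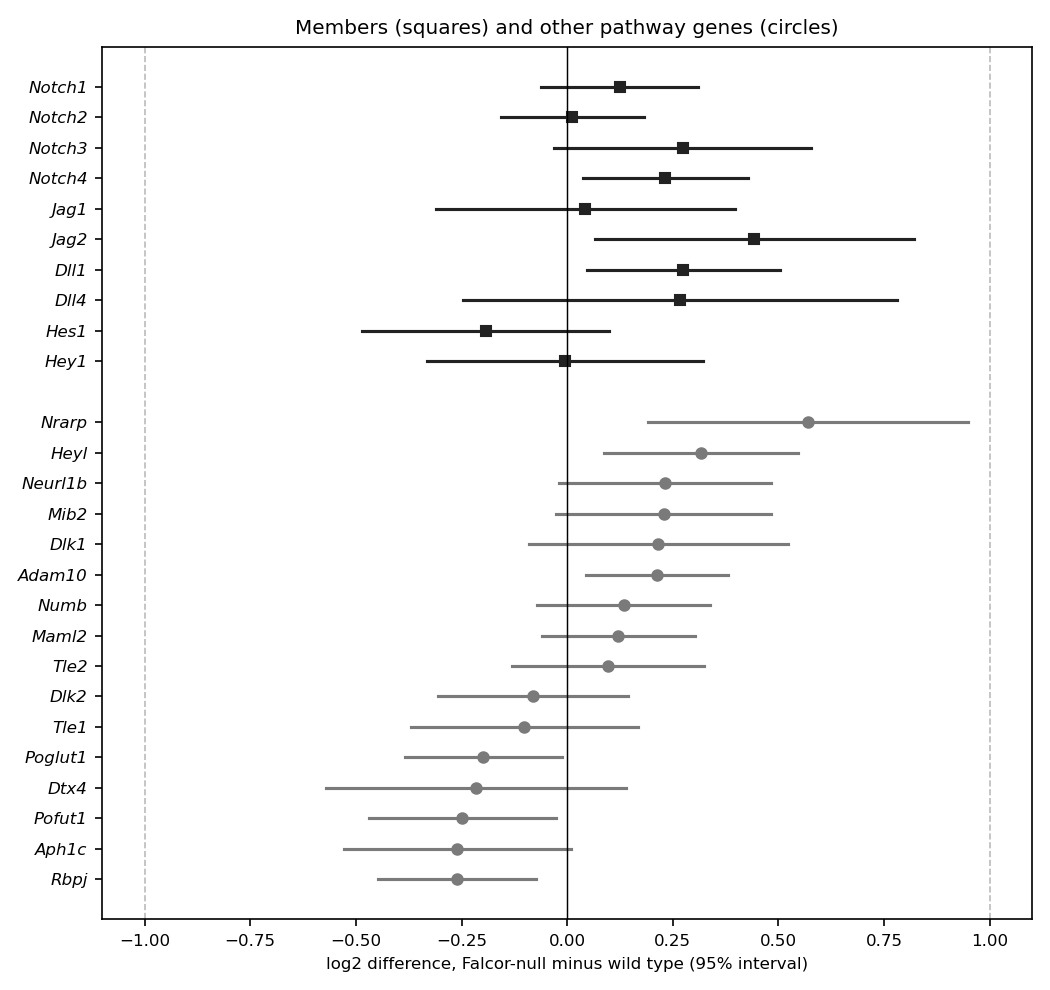
Log2 difference, Falcor-null minus wild type, with its 95% interval for the 10 members (squares) and 16 further pathway genes (circles), with dashed lines at a 2-fold change. Each interval stays between the dashed lines; the highest difference is that of Nrarp at 0.57 and the lowest that of Rbpj at -0.26.

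Other target genes of Notch included the largest difference of the whole list. Nrarp, a feedback inhibitor that Notch induces and that acts on the Notch transcription complex, read 7.30, 7.27 and 7.23 in wild type and 8.24, 7.61 and 7.67 in Falcor-null (probe set 17367852). All Falcor-null arrays lay above all wild-type arrays, and the first of them stood well above the other 2. The difference of 0.57 (SE 0.16, 95% interval 0.19 to 0.95), 1.49-fold, was not called (limma adjusted p 0.191). It was 0.37 without Falcor-null replicate 1, with an adjusted p of 0.224.

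Heyl, a Hey family repressor known from vascular smooth muscle, read 7.32, 7.52 and 7.46 in wild type and 7.66, 7.91 and 7.69 in Falcor-null (probe set 17418177). Its groups did not overlap, and the difference of 0.32 (SE 0.10) had an adjusted p of 0.223 in limma. The 8 other genes listed as targets included Hes genes counted by family alone. Of these 8, 7 were higher, where 50.8% of all genes were, and 1, Hes5, was lower by its brighter probe set. Their median log2 difference was 0.18 and no gene passed. Hes5, a Notch target best known from the nervous system, and Hes2, a family member, were picked after their values were seen. Hes5 by its brighter probe set read 6.14, 6.28 and 6.47 against 6.19, 6.25 and 6.20, a difference of -0.08 (adjusted p 0.771). Its dimmer probe set gave 0.17 (adjusted p 0.499 over all probe sets), so that the direction of Hes5 is unsettled. Hes2 read 5.65, 5.31 and 5.28 against 6.11, 5.65 and 5.67, and its difference of 0.39 had an adjusted p of 0.323.

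**Figure D3:**
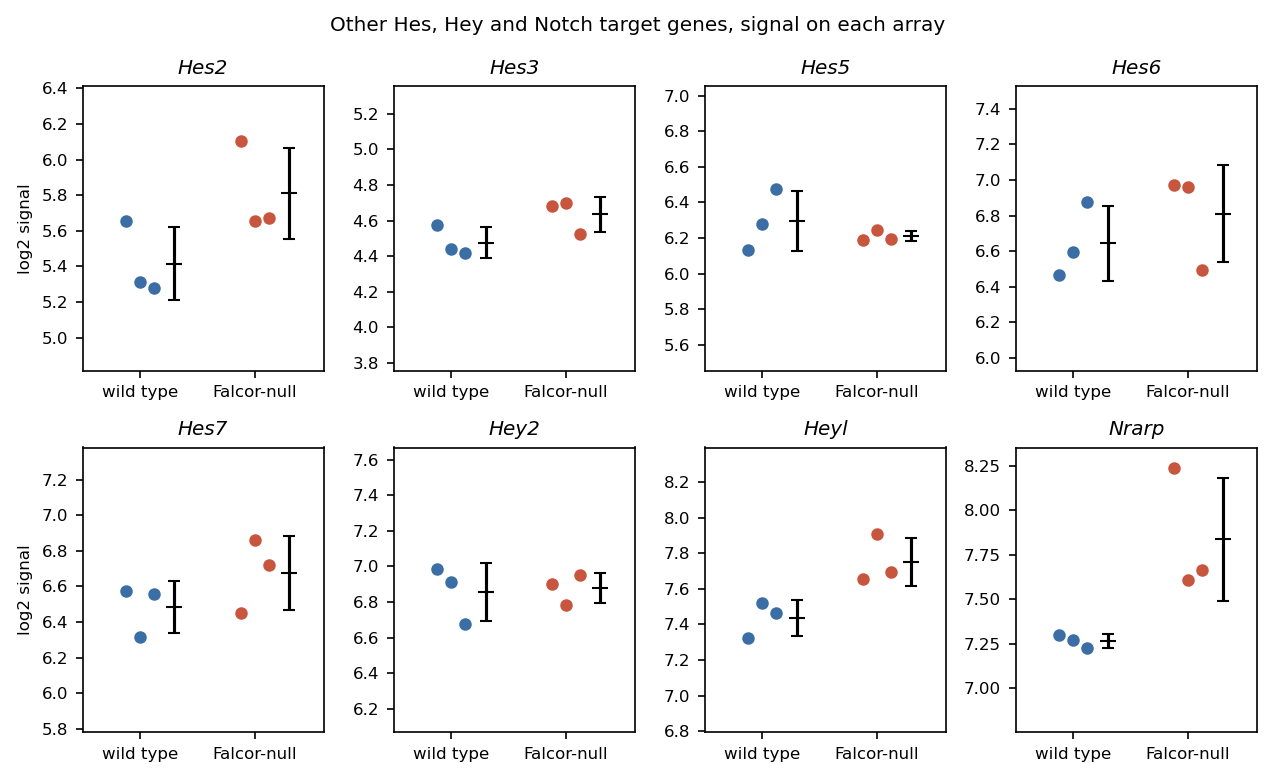
Log2 signal of the 8 other Hes, Hey and Notch target genes on each array, wild type in blue and Falcor-null in red, with the mean and SD of 3 arrays beside the points; each vertical axis spans the same log2 range around that gene's mean. Nrarp and Heyl have groups that do not overlap, while those of Hes5 do.

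Rbpj, the DNA-binding protein through which all 4 receptors act, stood at the low end of the list. It read 9.12, 9.01 and 8.98 in wild type and 8.86, 8.73 and 8.74 in Falcor-null (probe set 17466505). All Falcor-null arrays lay below all wild-type arrays, with a difference of -0.26 (SE 0.08, 95% interval -0.45 to -0.07) that did not pass (limma adjusted p 0.218). A dimmer Rbpj probe set gave -0.13 (adjusted p 0.657 over all probe sets), with groups that overlapped. Its coactivator Maml2 differed by 0.12 (adjusted p 0.545), and of the 9 genes of the transcription complex 5 were higher and 4 lower.

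Among the proteases, Adam10, which makes the first cut after ligand binding, read 9.56, 9.66 and 9.64 in wild type and 9.82, 9.86 and 9.82 in Falcor-null. The groups did not overlap, and the difference of 0.21 (SE 0.07) had an adjusted p of 0.257 in limma. Aph1c, a subunit of the gamma-secretase that makes the second cut, differed by -0.26 (adjusted p 0.375). Of 9 proteases and subunits measured, 3 were higher and 6 lower.

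The enzymes that put sugars on the receptor's EGF repeats gave 2 higher and 3 lower genes of 5. Pofut1, which adds fucose, differed by -0.25 (adjusted p 0.307) and Poglut1, which adds glucose, by -0.20 (adjusted p 0.333), both with groups that did not overlap. The ligand-endocytosis ligases Neurl1b (0.23, adjusted p 0.400) and Mib2 (0.23, adjusted p 0.412) were among 3 of 4 higher genes. The non-canonical ligands Dlk1 and Dlk2 differed by 0.22 (adjusted p 0.524) and -0.08 (adjusted p 0.774). Among the regulators of receptor turnover, Numb, an inhibitor of Notch, gave 0.13 (adjusted p 0.553) and Dtx4 -0.22 (adjusted p 0.582), with 5 of 8 higher. The co-repressors Tle2 (0.10, adjusted p 0.725) and Tle1 (-0.10, adjusted p 0.757) had the smallest p-values of 9, of which 3 were higher. Both stood at 0.01 without Falcor-null replicate 1, so that the sign of Tle1 turned.

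Promoter sequences show which letters bound by pathway proteins lie beside these genes. Windows of 250 bases upstream of each annotated start, from RefSeq on GRCm38.p6, were found for 8 of the 10 members (9 windows, 2 for Dll1), with Hes1 and Hey1 not matched. They were searched on both strands for TGGGAA, the core bound by Rbpj, and for CACGTG and CACGCG, which Hes and Hey repressors can bind. Matches of different motifs may overlap, which none did in the windows of the members. TGGGAA was in 0 of the 9 member windows and in 21.6% of all 32851 windows. CACGTG was in 0 of 9, and in 6.02% of all. CACGCG was in 4 of 9, in windows of Notch2, Jag1, Dll1 and Dll4, and in 7.62% of all. These genes were not matched on base composition, and a match in letters is a description and not a site.

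Windows are printed for the member with the smallest p, for the target with the largest difference and for a target that holds the Rbpj core, with matches in capitals. In the window of Dll1 at chr17:15376933-15377182 (minus strand), CACGCG began 68 bases before the start. The other Dll1 window, at chr17:15375824-15376073, held none of the motifs and is not printed. In that of Nrarp at chr2:25180508-25180757 (plus strand), CACGTG began 108 bases before the start. In that of Hes5 at chr4:154960673-154960922 (plus strand), the Rbpj core began 226 bases before the start on one strand and 82 bases before it on the other. The window of Nrarp held no TGGGAA.
Dll1: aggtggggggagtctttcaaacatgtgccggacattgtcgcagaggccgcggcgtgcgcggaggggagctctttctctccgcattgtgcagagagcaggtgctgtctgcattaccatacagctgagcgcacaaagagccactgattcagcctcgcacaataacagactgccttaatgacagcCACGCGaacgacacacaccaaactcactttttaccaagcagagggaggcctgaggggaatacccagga
Nrarp: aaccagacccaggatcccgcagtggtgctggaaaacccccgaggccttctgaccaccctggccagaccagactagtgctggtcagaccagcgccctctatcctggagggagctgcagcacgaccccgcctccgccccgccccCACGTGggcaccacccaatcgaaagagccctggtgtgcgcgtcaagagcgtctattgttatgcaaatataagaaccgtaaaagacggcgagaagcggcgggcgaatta
Hes5: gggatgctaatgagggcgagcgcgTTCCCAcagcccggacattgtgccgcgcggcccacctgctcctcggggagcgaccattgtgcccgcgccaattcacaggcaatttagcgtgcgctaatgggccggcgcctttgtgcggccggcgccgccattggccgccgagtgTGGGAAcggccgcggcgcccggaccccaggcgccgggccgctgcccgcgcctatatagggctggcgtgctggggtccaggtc

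Markers of the cells in which these genes are known were read beside them. All 14 lung endothelium markers had higher means in Falcor-null, where 50.8% of all genes did, none passing, with a median log2 difference of 0.13; their mean log2 signal was 9.78 to 9.88 in wild type and 10.03 to 10.05 in Falcor-null. Pecam1 and Cdh5, which define endothelium, differed by 0.13 (adjusted p 0.475) and 0.11 (adjusted p 0.542), and Cldn5, a tight junction protein, and Tie1, a receptor kinase, by 0.43 and 0.47 (limma adjusted p 0.101 each). All 8 arterial endothelium markers had higher means as well, none passing, with a median of 0.28 and mean signals of 8.03 to 8.12 against 8.35 to 8.40. Gja5 and Gja4, connexins of arterial endothelium, gave 0.48 (adjusted p 0.0530) and 0.23 (adjusted p 0.267), and Unc5b, a netrin receptor, 0.43 (adjusted p 0.0793). Gja5 passed when arrays were centred on their medians (adjusted p 0.0448), after a second quantile normalization (0.0485) and without probe sets below the 30th percentile (0.0332), and Unc5b passed without those below the median (0.0451).

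All 9 pericyte and smooth muscle markers had higher means, where 50.8% of all genes did, with a median of 0.22 and mean signals of 8.47 to 8.54 against 8.70 to 8.91. Tagln, an actin-binding protein of smooth muscle, rose by 0.55 on the log2 scale (limma adjusted p 0.0407) and was the 1 marker of the 9 to pass, a call lost with any 1 of the 6 arrays left out (adjusted p 0.0754 to 0.141) and with replicate numbers as a block (0.124). Pdgfrb and Cspg4, which define pericytes, differed by 0.15 (adjusted p 0.665) and 0.29 (adjusted p 0.194), and Pdgfrb by 0.05 without wild type replicate 1 and 0.06 without Falcor-null replicate 1. The median of Notch receptors was 0.18 and that of the 4 ligands 0.27, on the same scale. The part of these cell types in the differences of the Notch genes was not tested.

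Lymphocyte markers went the other way. All 7 T cell markers measured had lower means, where 8136 of all 16537 genes did, and 4 passed, where 0.46% of all genes passed as lower. Their median was -0.65, with mean signals of 6.98 to 7.29 against 6.31 to 6.49. Cd3e, part of the T cell receptor complex, fell by 1.20 on the log2 scale (adjusted p 0.00949), Cd4, the coreceptor of helper T cells, fell by 1.23 (adjusted p 0.0131), and Cd3d differed by -0.48 (adjusted p 0.200). The calls of Cd3e and Cd4 were lost without Falcor-null replicate 2 (adjusted p 0.0529 and 0.0687), and that of Cd4 also without wild type replicate 2 (0.0546). All 5 B cell markers measured had lower means, 1 passing, with a median of -0.46. Their part in the values of Notch1, Notch2 and Rbpj, which lymphocytes also express, was not tested. Of the airway epithelium, 3 of 5 club cell markers had higher means, with a median of 0.02, and 5 of 6 ciliated cell markers, with a median of 0.17, none passing in either list. The club cell median was the value of Scgb1a1, with means of 13.58 in wild type and 13.59 in Falcor-null. Array maxima were 13.8 to 13.9, so whether its signal could still rise with more RNA is unknown. Of 5 neuroendocrine markers 3 were measured, all lower and none passing, with mean signals of 4.68 to 5.19 against 4.72 to 4.86. Signals this dim could not be checked against background, so their direction is not read.

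**Figure D4:**
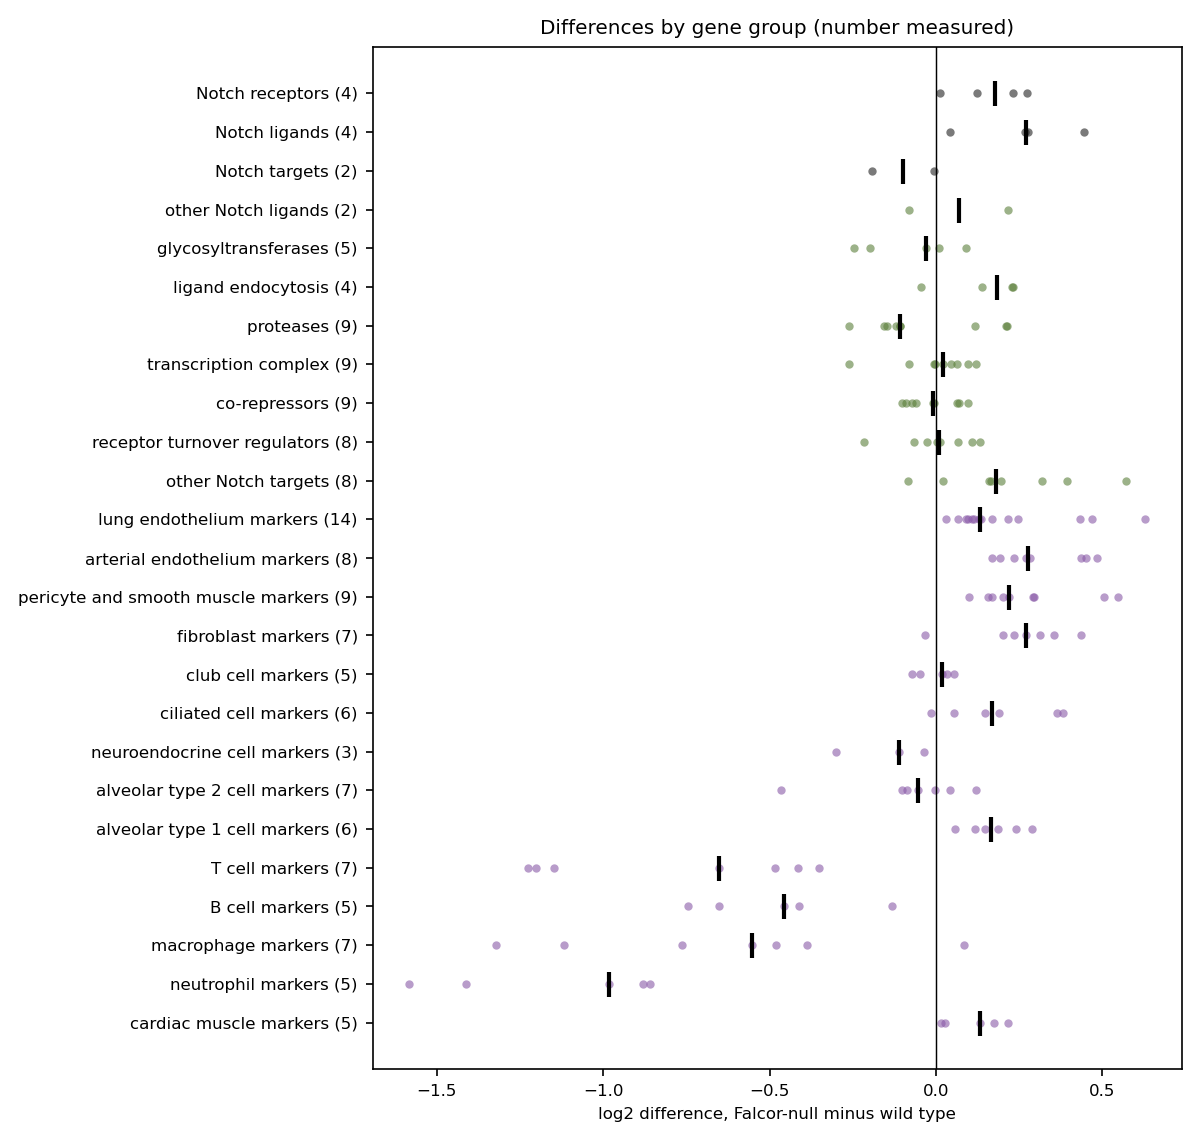
Log2 difference, Falcor-null minus wild type, of each gene (points) by group, with the group's median as a black bar and the number measured in parentheses; the 10 Notch genes are in black, the other pathway genes in green and cell type markers in purple. The medians of Notch receptors (0.18) and ligands (0.27) lie in the range of those of endothelium (0.13 to 0.28), pericyte and smooth muscle (0.22), fibroblast (0.27), alveolar type 1 (0.17), ciliated cell (0.17) and cardiac muscle markers (0.13), and the T cell, B cell, macrophage and neutrophil markers lie furthest to the left.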

How the data were processed

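Whole-lung RNA of 3 wild-type and 3 Falcor-null samples was extracted with Trizol, amplified and biotin-labelled, per the labels' protocols. Each value in the deposited table is a log2 signal of 1 probe set. Oligo, RMA and limma, with no versions, are what the submitters' processing notes list; RMA's quantile step can remove a shift shared by most genes. Not given in the sources used here are row filters, detection calls and the annotation's build. The number of arrays limits precision.

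Probe sets with exactly 1 symbol were used, symbols were updated through RefSeq gene numbers (17368 of 17476 matched), and the brightest probe set by mean signal stood for a gene. Groups were compared with lmFit and eBayes (two-sided, no covariates; limma 3.58.1 in R 4.3.3). Passing means an adjusted p below 0.05, adjusted over all 16537 genes. Intervals are 95% intervals of that fit, not adjusted. Signed values are the Falcor-null mean minus that of wild type.

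The members and lists were chosen with earlier results of these data known. Genes named in the text were, by rule, the 10 members, pathway genes that passed, 2 with the smallest p per subgroup, the ends of the list's range, the 3 genes nearest in pattern, Falcor, Foxa2 and up to 4 markers per cell type; Hes5 and Hes2 were added outside the rule, after their values were seen. Marker lists also covered fibroblasts (median 0.27), basal cells (0.22), alveolar type 1 (0.17) and type 2 cells (-0.06), macrophages (-0.55), neutrophils (-0.98), red blood cells (0.31, 1 gene) and cardiac muscle (0.13). Alternatives were the replicate number as a block, other scaling, other variance settings, array weights, dim-signal filters, other handling of probe sets, a looser threshold and leaving out each array. Scripts were tested on simulated data. Figures used matplotlib 3.10.9 in Python 3.11.15.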

Additional observations from a re-analysis of the deposited data

How the results depend on the processing

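No member and no other pathway gene passed limma under any of the 17 alternatives, 6 of which left out a single array. The count over all genes was 92, against 32 with replicate numbers as a block, 280 at an adjusted p under 0.1 and 18 to 89 with 1 array left out. Whether replicate numbers pair the samples could not be settled from these values. The deviations of same-numbered samples correlated at 0.022, -0.0025 and -0.081 across genes, and not every sample correlated best with its own number. The members' median of 0.18 was 0.22 after a second quantile normalization and 0.090 to 0.19 with 1 array left out. That of the pathway list, 0.010, was 0.038 with arrays centred on their medians, 0.051 after a second quantile normalization and 0.0054 to 0.050 with 1 array left out. Over 46 genes named in the text, 14 of 768 values changed sign, for Hey1, Notch2, Jag1, Tle1 and Hes5. Many of the 768 could not change, since the block, the variance settings, the dim-signal filters and the looser threshold keep each gene's difference. The share that changed is therefore no measure of how stable the directions are. Hes5 was 0.044 with its probe sets averaged, and Hey1 was 0.023 with centring and 0.035 after a second quantile normalization. With 1 array left out, Hey1 ranged from -0.13 to 0.081, Notch2 from -0.010 to 0.047, Jag1 from -0.11 to 0.19, Tle1 from -0.20 to 0.011 and Hes5 from -0.16 to 0.0053. Without detection calls, signal over background is unknown for the dimmest genes, Htr3b, Dlk1, Dlk2, Hes2 and, in wild type, Falcor among those named.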
